A study of Mus musculus with 3 samples.

Results

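The genes described here are 9 genes that make or mark macrophages: the receptor Csf1r, the surface protein F480 (Adgre1, spelled here as in the labels) by which the cells were sorted, and the transcription factor genes Spi1 (PU.1), Maf (c-Maf), Cebpa, Cebpb, Irf8, Runx1, and Klf4. They were taken from a list of names and found on the array through the RefSeq transcript of each spotted sequence. All 9 were present, as 13 spotted sequences, out of 19752 named genes on 26056 sequences. All 13 sequences were well above background on all 3 arrays. Of the 9 genes, Irf8 was over 2-fold higher on both later arrays than at P42, Maf was over 3-fold lower at P55 than on the other 2 arrays, and each of the other 7 differed by less than 2-fold between any arrays when read by its brightest sequence.

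Macrophages need signals through the Csf1r kinase, which binds the cytokines CSF1 and IL-34, to survive and multiply. PU.1 switches on Csf1r and most myeloid genes, together with C/EBP and RUNX proteins, while IRF8, KLF4, and c-Maf act in the monocyte and macrophage branches. In skin, several F480+ cell types share this machinery, among them dermal macrophages, monocyte-derived cells, and Langerhans cells of the epidermis.

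The samples were CD11b+Gr1−F480+ cells, called skin resident macrophages in the labels, which were isolated by FACS from digested backskin of CD1 mice at physiological stages of the hair cycle. Each stage of the second telogen was represented by 1 array that carried the RNA of 3 littermates as 1 pool, namely postnatal day 42 (early telogen, for which the study's text gives a slightly later day), day 55 (mid telogen), and day 69 (late telogen). No stage had a replicate, so differences between stages could not be tested and carry no p-value. The RNA, in subnanogram to nanogram amounts, was amplified before Cy3 labeling, and all arrays lay on 1 slide. Fewer cells of a type and less RNA per cell cannot be told apart in such pools.

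The level of a sequence is given as log2 of its background-corrected intensity relative to the 75th percentile of its array, so that 0 is the level of that percentile. Changes were computed only between arrays for the same sequence. Different sequences were ranked or added by level only to choose the brightest of a gene and to sum marker lists. Such sums are weighted toward bright sequences. Repeated spots of the same sequence on the same array differed with a median SD (log2) of 0.126 at P42, 0.108 at P55, and 0.119 at P69, from 217, 145, and 160 sequences with 10 or more spots. A difference between arrays was called larger than the spot error when it exceeded 2 SD of the difference, namely 0.332 for P55 against P42, 0.347 for P69 against P42, and 0.321 for P69 against P55. This error covers the spotting and scanning only, not the animals, the sort, or the amplification.

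Across the series, 71.4%, 59.6%, and 68.7% of the 55681 sequences were well above background at P42, P55, and P69, and no spot was saturated. The authors also deposited a table of log2 values for 36409 sequences. Its P55 column matched the scanner file of P69 and its P69 column that of P55, with a residual SD of 0.0044 and 0.0057, whereas columns and files of the same label differed with a residual SD of 1.29 each. The assignment of the scanner files was kept here. If the table is right, every P55 value below is a P69 value and the reverse, while statements on both later arrays against P42 hold either way.

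Regulatory sequence next to the start of the genes is shown as the 250 bases upstream of the annotated transcript start, from RefSeq (GRCm38.p6). The search covered 7 such windows, for 5 of the 9 genes. Windows of Csf1r, Adgre1, Spi1, and Maf were not analysed here. The windows below are the ones of Irf8, the gene with the highest increase, and those of other members in which a searched motif was found. Capitals mark matches to a motif on either strand.

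Irf8, chr8:120736108-120736357 (forward strand): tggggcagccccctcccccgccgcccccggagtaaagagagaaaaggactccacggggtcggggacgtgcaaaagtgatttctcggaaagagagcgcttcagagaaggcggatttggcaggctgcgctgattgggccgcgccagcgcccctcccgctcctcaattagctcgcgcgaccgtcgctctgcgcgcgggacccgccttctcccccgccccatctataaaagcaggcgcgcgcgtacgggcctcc
Irf8 second start, chr8:120738389-120738638 (forward strand): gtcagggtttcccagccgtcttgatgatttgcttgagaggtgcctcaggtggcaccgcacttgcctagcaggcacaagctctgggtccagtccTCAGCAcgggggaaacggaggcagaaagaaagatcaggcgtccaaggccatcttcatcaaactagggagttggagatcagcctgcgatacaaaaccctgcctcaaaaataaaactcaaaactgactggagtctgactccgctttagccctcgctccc
Cebpa, chr7:35119043-35119292 (forward strand): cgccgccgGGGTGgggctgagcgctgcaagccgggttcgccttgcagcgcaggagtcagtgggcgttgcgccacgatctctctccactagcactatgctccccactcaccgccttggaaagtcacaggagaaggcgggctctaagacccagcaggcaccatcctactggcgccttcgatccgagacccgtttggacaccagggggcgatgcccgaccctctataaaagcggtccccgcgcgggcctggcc
Cebpb, chr2:167688665-167688914 (forward strand): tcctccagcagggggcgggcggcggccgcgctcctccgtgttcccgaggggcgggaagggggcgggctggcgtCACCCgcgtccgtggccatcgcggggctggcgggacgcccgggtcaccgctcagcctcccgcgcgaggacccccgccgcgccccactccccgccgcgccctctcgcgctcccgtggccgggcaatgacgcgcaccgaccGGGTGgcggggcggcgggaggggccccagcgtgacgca
Runx1 second start, chr16:92697330-92697579 (reverse strand): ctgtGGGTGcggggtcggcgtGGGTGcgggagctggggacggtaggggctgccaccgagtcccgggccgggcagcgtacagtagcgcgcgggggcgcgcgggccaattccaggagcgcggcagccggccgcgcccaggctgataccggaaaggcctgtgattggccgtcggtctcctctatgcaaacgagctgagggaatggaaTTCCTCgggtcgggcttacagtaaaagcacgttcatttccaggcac

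The PU.1 word GAGGAA, which 23.3% of all 32851 windows of this length held, was found in 1 of the 7 windows, that of the second Runx1 start, 46 bases before the start and on the opposite strand. The MAF half-site TGCTGA (16.1% of all windows) was found in the second Irf8 window, 157 bases before the start. The KLF word CACCC (52.0% of all windows) was found in 3 of the 7 windows, in those of Cebpa, Cebpb, and the second Runx1 start. The C/EBP word TTGCNNAA (9.56%), the RUNX word TGTGGT (14.0%), and the IRF motif, a pair of GAAA words separated by 2 bases (2.98%), were in none of the 7. These are matches of letters in a short window, and no binding was measured.

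**Figure D1:**
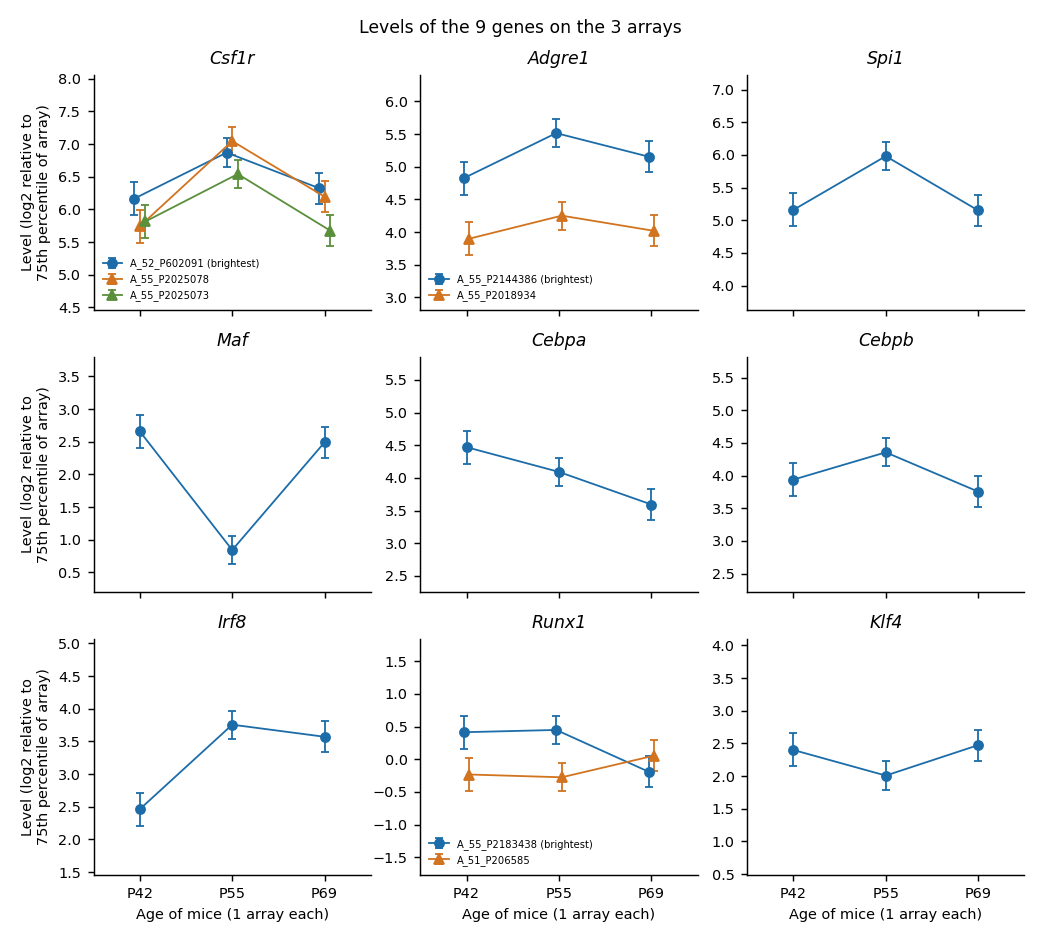
Levels of the 9 genes on the P42, P55, and P69 arrays (x axis), as log2 intensity relative to the 75th percentile of the array (y axis, spanning the same range in each panel), with 1 line per spotted sequence and bars of 2 SD of repeated spots. Maf dips from 2.66 to 0.84 at P55, Irf8 steps up from 2.46 to 3.76 and 3.57, and the 2 sequences of Runx1 part at P69.

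Csf1r, the receptor, had 3 spotted sequences. Its brightest (A_52_P602091) had levels of 6.16 at P42, 6.87 at P55, and 6.32 at P69. The other sequences had levels of 5.74, 7.04, and 6.19 (A_55_P2025078) and of 5.81, 6.54, and 5.68 (A_55_P2025073) in the same order. All 3 were highest on the P55 array, by more than the spot error over both other arrays. The increase from P42 to P55 (log2) was 0.91 ± 0.34 (SD over the 3 sequences, which share their RNA and are not replicates), and 1 of the sequences passed 2-fold (2.47-fold). At P69 the sequences did not share a direction, with changes from P42 of 0.16, 0.45, and -0.14, and only the second exceeded the spot error. The arrays were also processed in 4 other ways, scaled to the 75th percentile over detected sequences, to the median, or by quantile normalization, or with normexp background correction (arrays left unscaled are not among them). Under these, the P55 increase stayed positive for all 3 sequences, between 0.33 and 1.26 for the brightest, whereas the difference between P55 and P69 turned to 0.26 in favor of P69 for the brightest under quantile normalization.

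Of 20 genes around the receptor (its ligands, the related colony-stimulating factor receptors, and signal transducers), 19 were well above background, and Sos1, a Ras exchange factor, was not on any array. At P55, 9 of the 19 were at least 2-fold higher than at P42 and none was 2-fold lower, against 29.1% and 16.9% of all genes. The median change was 0.80, against a median of 0.22 over all genes. At P69 these counts were 3 and 0, against 22.2% and 20.7% of all genes, with a median of 0.40 against 0.15. Under the other ways of processing, the median stayed positive, between 0.43 and 1.36 at P55 and between 0.20 and 0.92 at P69. The counts ranged from 4 to 12 higher and 0 to 2 lower at P55. At P69 they ranged from 3 to 8 and from 0 to 1, and the shares of all genes moved too. In this and the following lists, the steadiest increase and decrease are those of the genes whose smaller change on the 2 later arrays was the largest in that direction, among genes well above background on all 3 arrays. Other genes could change more on 1 array. The shares of all genes given here are also the background for the counts in the following lists. A count near them is no result about the list. The steadiest increase was that of Il34, which encodes the Csf1r ligand made by keratinocytes, with levels of -1.66, 0.57, and 0.46. Its changes were 2.23 and 2.12, and they ranged from 1.56 to 2.79 under the other ways of processing. The steadiest decrease was that of Csf3r, the G-CSF receptor, with levels of 6.36, 5.70, and 5.40. The sequences of Csf1, the other ligand, did not share a direction, with changes at P55 of -0.54 for the brightest and of 1.19 and 1.44 for the others. Csf1 was named after its values were seen.

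Adgre1, which encodes the F480 antigen of the sort, had levels of 4.83 at P42, 5.51 at P55, and 5.15 at P69 by its brightest sequence (A_55_P2144386). The other sequence (A_55_P2018934) had levels of 3.90, 4.25, and 4.02. Both had their highest value at P55 and their lowest at P42. The changes from P42 to P55 were 0.69 and 0.35, both past the spot error for that pair of arrays, whereas those to P69, 0.33 and 0.12, were within it. The second sequence turned to -0.22 at P55 under quantile normalization. As the cells were sorted on this protein, its presence on all arrays follows from the design. Among 11 other adhesion G protein-coupled receptors, the family of Adgre1, 5 of 10 with a value were at least 2-fold higher at P55 and 1 was lower, and 3 and 1 were so at P69. Adgre4, a close relative of F480, had the steadiest increase of the family, with levels of -1.96, 0.71, and 0.84, and it was 2.67 and 2.80 higher than at P42. The gene that was 2-fold lower was Adgrg3, with a change of -1.32 at P55, a bound because it was below background there, and of -1.17 at P69. The steadiest decrease, that of Adgrb1, was -0.50 and -0.29 by its brightest sequence and changed sign under median scaling. The other Adgrb1 sequence had changes of -1.41 and -1.83. Adgrg3, and below Irf7, Erg, Klf12, Tfec, and Zeb2, were named after their values were seen.

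Itgam, which encodes the CD11b of the sort, was well above background on all arrays by each of its 3 sequences, and the brightest had levels of 8.95, 8.73, and 7.85. It was 0.23 lower at P55, within the spot error, and 1.10 lower at P69, although the P69 difference ranged from -1.31 to 0.08 under the 4 other ways of processing. Both other sequences were over 2-fold lower at P55 (-1.06 and -1.08), so that the sequences of the gene differed. Itgb2, the β chain that pairs with CD11b, stayed within 0.38 of its P42 level. Ptprc, the pan-leukocyte CD45, had the steadiest decrease of the gate genes, with levels of 2.23, 0.61, and 0.96, and was lower on both later arrays under all 4 other ways of processing. The brightest Ly6c1 sequence, a gene bound in part by the Gr1 antibody, stayed within 0.09 of its P42 level, while its other sequence had changes of -0.98 and -0.93. Ly6g and Ly6c2, the other Gr1 genes, were not analysed here.

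Spi1, which encodes the master myeloid factor PU.1, had levels of 5.16 at P42, 5.98 at P55, and 5.15 at P69. The P55 array stood above the others, whose values were within the spot error. The change to P55 was 0.82 (1.77-fold) and kept its sign under the other ways of processing, between 0.31 and 1.38. The difference between P55 and P69 was -0.83 and vanished under quantile normalization (0.01). Of 13 other Ets factors, the DNA-binding family of PU.1, 1 was at least 2-fold higher and 3 were lower at P55, against 29.1% and 16.9% of all genes. None was higher and 3 were lower at P69, against 22.2% and 20.7%. The steadiest decrease was that of the repressor gene Etv3, with levels of 1.33, -1.07, and -0.36, and it was lower on both later arrays under the 4 other ways of processing. Erg, an endothelial and stem cell factor, changed more at P55 (-2.72) and less at P69 (-1.19). The steadiest increase was that of Etv6, a repressor needed in hematopoiesis, at 1.16 and 0.70.

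Cebpa, which drives commitment to the myeloid lineage, had levels of 4.47 at P42, 4.09 at P55, and 3.59 at P69. It was the only member whose level was lower on each later array than on the one before by more than the spot error, with changes from P42 of -0.38 and -0.88 (1.84-fold lower at P69). The P69 change stayed negative under the other ways of processing, between -1.08 and -0.36, while the P55 change turned positive, 0.18, under median scaling. The step from P55 to P69, -0.50, vanished under quantile normalization (-0.003), so the stepwise decrease depended on the processing. Cebpb, which acts in inflammatory and alternative activation, had levels of 3.94, 4.36, and 3.75. Its P55 array was highest, by 0.42 over P42 and 0.60 over P69. Under quantile normalization, the change from P42 to P55 changed sign (-0.16), and that from P55 to P69 was only -0.06. Of the 5 other C/EBP genes, Cebpd, an acute-phase factor, was the only gene past 2-fold, with a change of 1.05 at P55 and 0.23 at P69. Cebpe, the granulocyte member, had the steadiest decrease, -0.15 and -0.64, of which the first turned to 0.41 under median scaling.

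Irf8, which directs monocyte and dendritic cell development, had levels of 2.46 at P42, 3.76 at P55, and 3.57 at P69. Both later arrays lay above P42, and they differed from each other by 0.19, within the spot error. Irf8 was 2.45-fold higher at P55 and 2.16-fold higher at P69 than at P42, with log2 changes of 1.29 and 1.11. These changes stood above those of 78.5% and 80.9% of all genes with a value, so that about 1 gene in 5 had an increase as large. Under the other ways of processing, the changes ranged from 0.73 to 1.85 at P55 and from 0.90 to 1.63 at P69. Among 8 other interferon regulatory factors, all well above background, 2 were at least 2-fold higher at P55 and 1 at P69, against 29.1% and 22.2% of all genes. None was 2-fold lower, against 16.9% and 20.7%. Irf3, an activator downstream of viral sensors, had the steadiest increase, 1.42 and 0.80, whereas the gene past 2-fold at P69 was Irf7, the interferon-induced amplifier, at 1.29 (-0.08 at P55). Irf1, an interferon-induced activator, had the steadiest decrease, -0.56 and -0.98, of which the first vanished under median scaling (0.00).

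Maf, which encodes c-Maf, a factor of resident macrophages and of interleukin-10 expression, had levels of 2.66 at P42, 0.84 at P55, and 2.49 at P69. The P55 array alone stood apart, while P42 and P69 differed by 0.17, within the spot error. Maf was 3.52-fold lower at P55 than at P42 (-1.81 on the log2 scale), and 4.78% of genes had a lower change. It was 3.14-fold higher at P69 than at P55 (1.65), above 97.7% of genes. Under the other ways of processing, the P55 change remained between -2.19 and -1.26. With the assignment of the authors' table, the low array would be P69 in place of P55. Of the 6 other Maf genes, 1 was at least 2-fold higher at P55, and 2 were lower at P69, of which Nrl was below background there. The small Maf gene Maff had the steadiest increase, 1.01 and 0.91, and Mafa, an insulin gene activator in pancreas, the steadiest decrease, -0.86 and -1.05.

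Runx1, a factor of hematopoietic stem cells that opens myeloid genes for PU.1, had levels of 0.41 at P42, 0.45 at P55, and -0.19 at P69 by its brightest sequence (A_55_P2183438). The other sequence (A_51_P206585) had levels of -0.23, -0.28, and 0.06. Neither differed between P42 and P55 by more than the spot error. At P69 they went in opposite directions, with changes from P42 of -0.60 and 0.29, the second within the spot error, so that no direction is given for the gene. Of the 4 genes of its list, Runx3, which is known for its part in Langerhans cells and cytotoxic T cells, had levels of 0.81, 4.21, and 3.76, an increase of 3.40 and 2.95. Its second sequence was 2.55 and 1.70 higher. The other gene of the list that was at least 2-fold higher on each later array was Cbfb, the partner subunit of RUNX proteins, at 1.75 and 1.79, which was named after its values were seen.

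Klf4, a factor of monocyte differentiation that is also a barrier factor of the epidermis, had levels of 2.40 at P42, 2.01 at P55, and 2.47 at P69. The P55 array was the lowest, by 0.39 against P42 and 0.47 against P69, and P42 and P69 were within the spot error of each other. The P55 decrease turned to an increase of 0.17 under median scaling, whereas P69 remained above P55, by 0.43 to 0.71, under all 4 other ways of processing. Among 14 other Klf genes, 2 were at least 2-fold higher and 2 lower than at P42 on each later array. All genes were split into 29.1% higher and 16.9% lower at P55, and 22.2% and 20.7% at P69. Klf5, a factor of epithelial cells, had the steadiest increase, 1.65 and 1.49, and Klf9, a hormone-responsive factor, the steadiest decrease, -1.57 and -1.28. Klf12, a repressor, changed more at P69 (-2.62) and less at P55 (-0.84).

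Of 28 further regulators of myeloid cells, 27 had a value at P55, with 6 at least 2-fold higher and 6 lower, against 29.1% and 16.9% of all genes. At P69, 3 and 3 of 27 were so, against 22.2% and 20.7%. Id2, an inhibitor of helix-loop-helix factors that Langerhans and dendritic cells need, had the steadiest increase, with levels of 0.50, 2.58, and 2.12. Batf3, a factor of cross-presenting dendritic cells, had the steadiest decrease, with levels of 0.64, -0.77, and -0.98. Both directions held under all 4 other ways of processing. By brightest sequences, the largest change of a gene measured on both arrays, P42 and P55, was that of Tfec, a factor of the Mitf family. It was -3.18, and -0.07 at P69. Other sequences could change more: the second of Zeb2 had changes of -3.40 at P55 and -3.31 at P69, its brightest -1.48 and -0.75.

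The members past 2-fold were counted beside all genes. At P55, 1 of 9 members (Irf8) was at least 2-fold higher than at P42, against 29.1% of 15843 genes, and 1 (Maf) was 2-fold lower, against 16.9%. At P69, 1 (Irf8) was 2-fold higher, against 22.2% of 16164 genes, and none was 2-fold lower, against 20.7%. From P55 to P69, 1 (Maf) was 2-fold higher, against 7.85% of 14846 genes, and none was 2-fold lower, against 11.3%. The median change of the members was 0.42, -0.01, and -0.50 in the same order, beside 0.22, 0.15, and -0.15 over all genes. No member passed the 10-fold threshold that the study's methods set. The split of all genes depended on the scaling: at P55 it was 19.3% higher and 25.7% lower with the 75th percentile taken over detected sequences and 46.1% and 7.83% with median scaling, and at P69 it was 16.7% and 25.7%, and 38.6% and 10.3%, respectively.

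**Figure D2:**
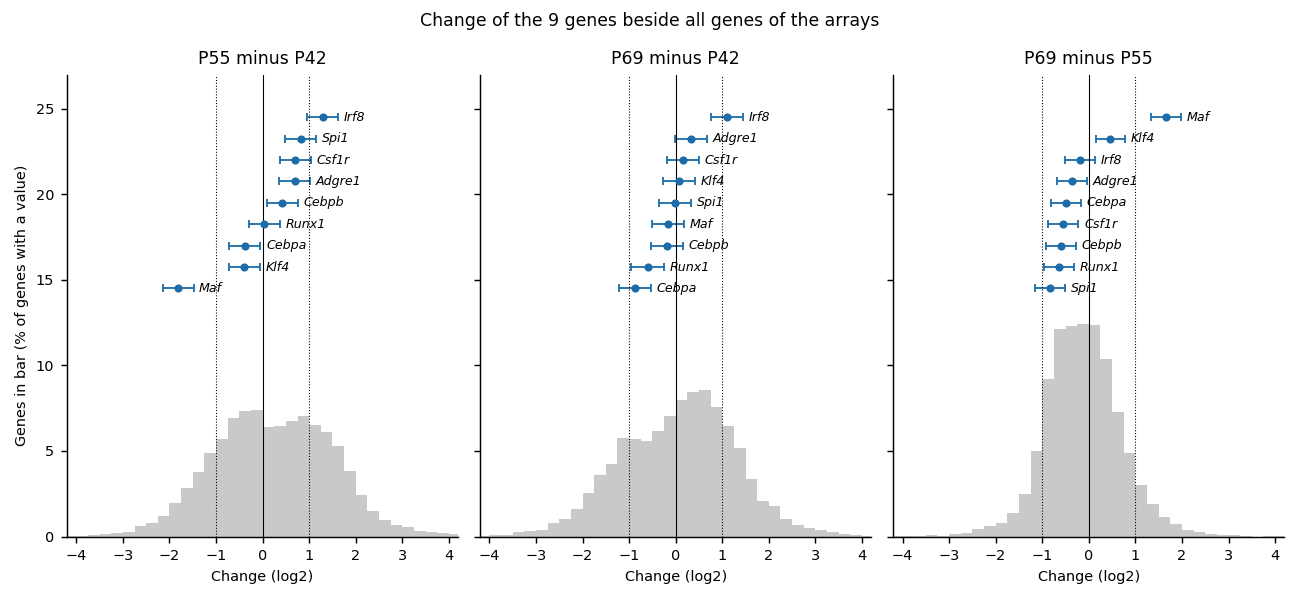
Change (log2, x axis) of the 9 genes by their brightest sequence (points, bars of 2 SD of the spot error, placed at arbitrary height) above the distribution of all genes with a value (gray bars, percent of genes, y axis), with dotted lines at 2-fold; changes beyond the plotted range are not shown. Irf8 lies past 2-fold on both later arrays against P42 and Maf lies past it at P55 only, while the other members lie within 2-fold in the bulk of all genes.

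Any single factor for an array shifts all members alike, so the differences between the changes of members do not depend on it. At P55 the change of Maf lay 2.23 below the median of the 9 members and that of Irf8 0.88 above it, and at P69 that of Irf8 lay 1.12 above it and that of Cebpa 0.87 below it. From P42 to P69, Irf8 thus gained 1.99 on Cebpa, and from P42 to P55 it gained 1.67, against 2 SD of the spot error of 0.491 and 0.470. Under quantile normalization these were 1.93 and 1.64, and under normexp background correction 1.76 and 1.47. Between P42 and P55, Maf lost 2.64 against Spi1 (2.43 and 2.55 under the same alternatives). The change of Csf1r minus that of Spi1 was -0.12 at P55 and 0.17 at P69, within the spot error, but 0.27 and 0.52 under quantile normalization, the latter past 2 SD of that error.

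**Figure D3:**
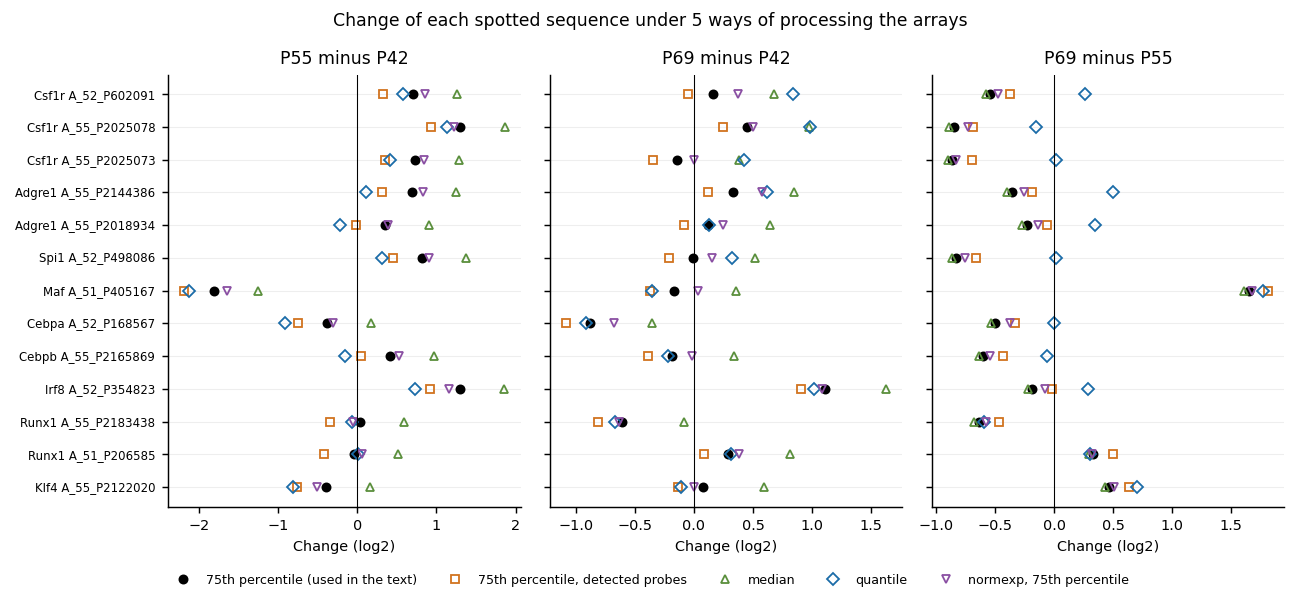
Change (log2, x axis) of each of the 13 spotted sequences (rows) between pairs of arrays, with filled circles for the processing used in the text and open symbols for 4 others. The symbols of Irf8 lie right of 0 in both comparisons with P42 and those of Maf left of 0 at P55, whereas 6 sequences change side at P55 against P42, 7 at P69 against P42, and 6 at P69 against P55.

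With 3 arrays, many genes share any pattern. The likeness of patterns was measured as the distance between the levels of the brightest sequences, each centered on its mean over the 3 arrays, among 13077 other genes that were well above background on all arrays. Within 0.2 (log2) of Irf8 lay 447 genes, the nearest of which were Cdc7 and H2-M3, and within 0.2 of Maf lay 30, the nearest of which were Lrp3 and Tmem170b. For the others, between 294 and 548 genes lay as near. Among their 2 nearest genes were Sidt2 and Ppp1r18 (Csf1r), Ptma and Slc7a1 (Adgre1), Cpne2 (Spi1), Efna4 (Cebpa), Clstn1 and Cog2 (Cebpb), Txnip and Scmh1 (Runx1), and Fpr2 and Zfp661 (Klf4).

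The labeled cell type was compared with markers that were not among the members. Of 19 macrophage markers on the array, 18 were well above background at P42 and at P55, and all 19 at P69, and the exception at the first 2 was Vsig4. The summed linear level of the list, in units of the 75th percentile of the array, was 375.0, 253.5, and 256.6. At P55, 1 of 18 with a value was at least 2-fold higher (Trem2, 1.85) and 4 were lower, and at P69, 3 of 19 were higher and 4 lower. Over all genes, 29.1% were higher and 16.9% lower at P55, and 22.2% and 20.7% at P69. The 4 lower genes were the same on both arrays, namely Marco (-1.61 and -2.57), Msr1 (-1.62 and -1.08), Cd163 (-1.19 and -1.55), and C1qb (-1.07 and -1.18). All 4 remained lower under the 4 other ways of processing. The complement genes C1qa (6.44, 5.88, and 5.88) and C1qb (6.77, 5.70, and 5.59) and the lysozyme gene Lyz2 (6.01, 5.57, and 5.59) had their highest level at P42, an order that for C1qa and Lyz2 did not hold under every other way of processing. Others of the list were higher at P69 than at P42, among them Lyve1 (1.99), Siglec1 (1.00), Timd4 (1.00), and Cx3cr1 (0.99). Cd68 was not analysed here.

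Markers of other cell types moved between P42 and the later arrays, along with Irf8. The shares of all genes past 2-fold were 29.1% higher and 16.9% lower at P55, and 22.2% and 20.7% at P69. All 15 keratinocyte markers were well above background on all 3 arrays, with a summed level of 284.9, 435.0, and 286.2, and 13 and 11 of them were at least 2-fold higher at P55 and P69, with medians of 3.29 and 2.88. Most of the sum at P42 came from 1 sequence of Trp63 with levels of 8.03, 8.04, and 7.35, and without that gene the summed level of the other 14 was 23.3, 171.6, and 123.2. The other Trp63 sequence was 3.15 and 4.04 higher on the later arrays. Krt5, a keratin of basal keratinocytes, had levels of 1.58, 5.55, and 4.91, and the adhesion gene Cdh1 had levels of -2.69, 1.83, and 1.87. Of 9 Langerhans and dendritic cell markers, Clec9a was not above background at P42 and P55 and 3 were at least 2-fold higher on each later array, and the summed level was 170.0, 369.0, and 187.7. H2-Eb1, the brightest of the list on each array, with levels of 6.93, 7.68, and 6.46, weighed most in this sum. At P69, 2 of the 8 with a value were at least 2-fold lower, namely Ccr7 (-1.70) and Cd209a (-1.51), and the median was -0.69, against 0.48 at P55. The 3 higher genes were Cd207 (3.78, 6.76, and 5.90), which encodes langerin of Langerhans cells, Epcam (1.27, 4.06, and 3.98), and Itgax (1.58, 4.31, and 3.76). Of 8 T cell markers, 4 were at least 2-fold higher on each later array, and the summed level was 4.1, 11.9, and 7.9. Of 5 melanocyte markers, 4 and 3 were at least 2-fold higher at P55 and P69, and 1 was lower at P69 (Mlana, -1.51). Their summed level was 1.7, 5.6, and 5.6. Of 5 monocyte markers, 1 and 2 were higher, and 1 was lower at P55 (Vcan, -1.73). Their summed level was 11.4, 25.7, and 34.1, with Fn1 at levels of 2.16, 4.10, and 4.31. The medians of 9 fibroblast markers, 8 of them with a value, and 8 endothelial markers were -0.88 and -0.89 at P55. There, 3 of each were at least 2-fold lower, and 1 fibroblast marker was 2-fold higher (Col6a1, 1.09). At P69 the medians were -0.28 and -0.04, with 1 fibroblast marker higher and 3 lower and 1 endothelial marker higher and 1 lower by 2-fold. Of 8 neutrophil markers, 5 were above background on each array, with summed levels of 1.9, 5.3, and 3.1, and Elane, a granule protease, was below background on all arrays. On each later array 1 was at least 2-fold higher (Cxcr2, 2.16 and 1.34), with levels of 0.10, 2.25, and 1.44. At P55, 1 was lower (Ltf, -2.52), and at P69, 2 were lower (Ltf, -2.34, and Ngp, -1.02, a bound). The medians were 0.33 at P55 and -0.29 at P69. Of 7 mast cell markers, 5, 2, and 6 were above background, and of 4 eosinophil markers 2, 2, and 3, without Prg2. The part of these cell types in the changes of Irf8, Maf, Klf4, and the other members was not tested.

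**Figure D4:**
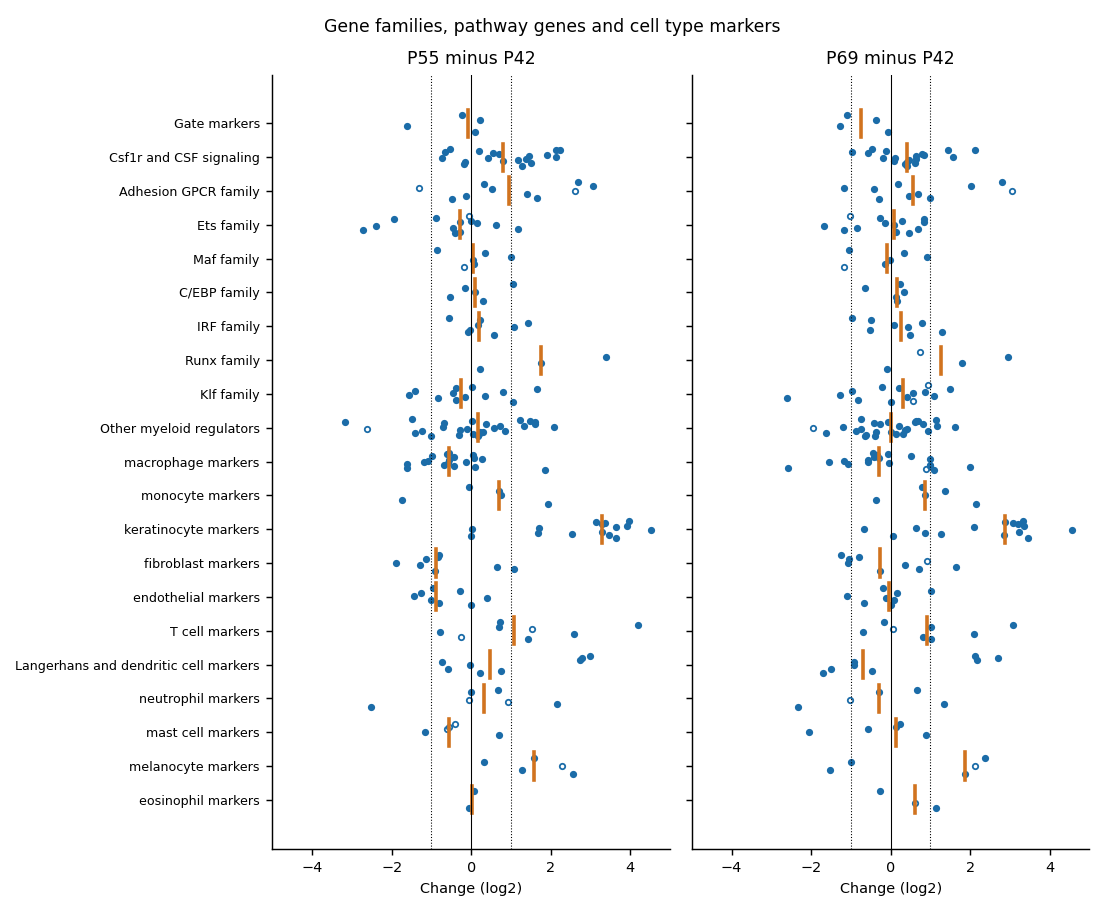
Change (log2, x axis) from P42 to P55 (left) and to P69 (right) of the genes of 10 family or pathway lists and 11 cell type marker lists (rows), with filled points for genes well above background on both arrays, open points for lower bounds, orange bars for list medians, and dotted lines at 2-fold. The keratinocyte markers stand furthest to the right on both arrays, with medians of 3.29 and 2.88, and the CSF signaling list lies mostly to the right at P55.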

How the data were processed

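Gene expression was measured in FACS-isolated CD11b+Gr1−F480+ skin macrophages at 3 ages, with 1 array per age. Per the labels and the study's methods, RNA was amplified with a whole transcriptome kit, labeled with Cy3, hybridized to an Agilent mouse array, and quantified with Feature Extraction (10.7.3.1 per the file headers). The authors deposited linear spot intensities, already corrected for background by the software, and a table of log2 values whose normalization is not given in the sources used here. Each row of that table has a median of 0 over the 3 arrays, all of its sequences range by at least 1 log2 unit, and its scale could be matched to the scanner files only with the P55 and P69 columns exchanged.

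From the deposited intensities, control spots and outlier spots (162, 274, and 281) were left out, spots of a sequence were averaged, and the 75th percentile of the array was subtracted on the log2 scale. A sequence counted as detected with a share of 0.5 or more of its spots called well above background. A change needed detection on at least 1 of the arrays, and with detection on 1 side only it is a lower bound. The dim side was then set to the lowest detected signal of that array, or to the sequence's own signal where this was higher. Gene symbols came from the RefSeq gene table of GRCm38.p6, matched by transcript, and a gene is represented by its brightest sequence, with all sequences given for members. A change was called at 2-fold. As 1 array per age allows no test, no p-value was computed, and the number of arrays limits the precision. The gene names, the gene lists, and the rules were chosen with earlier results of these data known. Beside the members, the genes named are those with the steadiest increase and decrease of each list (ranked by the smaller of the changes on the later arrays), the gate markers, cell type markers, and the nearest patterns, a few of which are not reported here. The processing was repeated with other scalings, normexp background correction (limma 3.58.1, offset 50, on median intensities as the files hold no mean), the authors' table, other filters, and other thresholds. The steps were tested on simulated data. Python 3.11.15, pandas 2.3.3, and R 4.3.3 were used.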

Additional observations from a re-analysis of the deposited data

How the results depend on the processing

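No paired analysis was possible because each age has 1 array and the labels give no replicate numbers, and for the same reason no array could be left out. Of 90 recomputed counts of members past the threshold (2-fold, or 1.5-fold or 3-fold in 2 of the settings), 68 stayed within 1.5 times the first count. As each first count was 0 or 1, this means that they were unchanged. Changes of the filters could hardly alter a count, as all members were well above background, so the 68 are no measure of robustness. At P55 against P42, the count of members that were higher (Irf8) became 0 with the 75th percentile over detected sequences, under quantile normalization, and at 3-fold, 2 without scaling, 2 with any sequence of a gene counted (chosen after seeing the data), and 4 with median scaling or at 1.5-fold. The count that were lower (Maf) became 0 in the authors' table and with P55 and P69 exchanged. At P69 against P42, the count that were higher became 0 with the 75th percentile over detected sequences and at 3-fold and 5 without scaling, and the count that were lower, at first 0, became 1 with the 75th percentile over detected sequences (Cebpa), in the authors' table and with the arrays exchanged (Maf), and 2 at 1.5-fold. At P69 against P55, the count that were higher (Maf) became 2 without scaling and 0 in the authors' table and with the arrays exchanged, and the count that were lower, at first 0, became 1 in the latter settings (Maf) and 3 at 1.5-fold. The difference of Maf between P69 and P55 turned to -1.65 in the authors' table and with the arrays exchanged, which follows from the exchange itself.

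The scalings moved the median change of all genes at P55, P69, and P69 against P55 by -0.39, -0.20, and 0.17 (75th percentile over detected sequences), by 0.63, 0.50, and -0.04 (median), by 0.09, 0.16, and 0.15 (quantile), and by 0.30, 1.17, and 0.87 (none), and normexp by -0.11, -0.12, and -0.05. Without scaling, 60.3% of genes were 2-fold higher and 3.61% lower at P69 than at P42. Member changes of the size of these shifts are therefore not separated from the choice of scaling (that of Spi1 from P55 to P69 went from -0.83 to 0.01 under quantile normalization), and the spot error does not cover animals or amplification.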
